A study of Homo sapiens with 4 samples.

Results

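The genes described here control the G1 phase of the cell cycle: the D-type cyclins CCND1, CCND2 and CCND3, the E-type cyclins CCNE1 and CCNE2, the kinases CDK2, CDK4 and CDK6, the inhibitor CDKN1B and the pocket protein RB1. They were taken by gene symbol, and all 10 were among the 26255 symbols of the deposited tables. The RNA came from 2 established human pancreatic tumour lines, PSN-1 and MIA PaCa-2, and was sequenced to look for messenger RNAs targeted by the microRNA miR-4800-3p. The 4 groups were PSN-1 with a miR-4800-3p mimic, PSN-1 with a scrambled control oligonucleotide, MIA PaCa-2 with the mimic and MIA PaCa-2 with the scrambled control, with 1 library each. All groups were transfected, and neither the amount of oligonucleotide nor the time to harvest is given in the sources used here. Nothing says that the libraries of a line came from separate cultures, so every p-value measures only the spread among these 4 libraries.

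Progress through G1 depends on cyclins that switch on cyclin-dependent kinases. D-type cyclins bind CDK4 or CDK6 and E-type cyclins bind CDK2, and both kinds of complex phosphorylate the RB1 protein, which then releases E2F transcription factors that drive S-phase genes. CDKN1B encodes p27, which inhibits CDK2 complexes and binds those of cyclin D, and the INK4 inhibitors block CDK4 and CDK6. In pancreatic cancer this pathway is known for frequent loss of the INK4 locus.

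The mature microRNA and its matches in the G1 genes are shown because the mimic acts, as microRNAs are known to, through base pairing of its seed, bases 2 to 8. In the first line below the capitals mark the seed, and in the other lines they mark a seed match, with flanking coding sequence in lower case. The letters GACGGAT and ACGGAT pair with the seed, and the last A of ACGGATA lies opposite base 1 of the microRNA and does not pair with it. The microRNA is from RefSeq (GRCh38.p14, chr4:2250091-2250109, minus strand) and the transcripts are from GENCODE release 29 (GRCh38, another build than the hg19 named for the files).
hsa-miR-4800-3p: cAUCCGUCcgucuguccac
CCND2 coding sequence, chr12:4299938-4299944, plus strand: ggaccaacgtGACGGATccaagtcgga
RB1 coding sequence, chr13:48362879-48362885, plus strand: acaggagtgcACGGATAgcaaaacaac
RB1 coding sequence, chr13:48465270-48465275, plus strand: gttcacccttACGGATtcctggaggg

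No G1 gene held a seed match in a 3' UTR, the region in which microRNAs are known to act most. Neither the 7-base matches GACGGAT and ACGGATA nor their shared core ACGGAT occurred in the 3' UTR of any of the 49 annotated coding transcripts of the 10 genes. Of the 11188 protein-coding genes that averaged 1 FPKM or more across the libraries, 2.52% had a 7-base match in the longest annotated 3' UTR and 5.85% had the core. None of 10 genes is near these shares. In coding sequence, CCND2 and RB1 had a 7-base match, as did 4.18% of those 11188 genes. CCND2, listed at 0 FPKM, is not one of those 11188. Absence of these letters from the annotated 3' UTRs says nothing about pairing of other kinds.

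Levels are FPKM, fragments scaled to transcript length and library size. The spacing of the lowest values put 1 FPKM at an estimated 15.9, 12.6, 14.2 and 12.7 fragments for each kb of transcript in the PSN-1 mimic, PSN-1 scramble, MIA PaCa-2 mimic and MIA PaCa-2 scramble libraries. A change is the difference in log2(FPKM + 1), mimic minus scramble, which makes changes of weakly expressed genes look smaller than they are. Changes past 1.5-fold on this scale were counted. The keratin genes KRT8 and KRT18 were at 495 to 923 FPKM in all libraries, as in epithelial cells, but the adhesion gene CDH1 was at 0.720 and 1.51 FPKM in PSN-1 and at 0.335 and 0.170 FPKM in MIA PaCa-2. EPCAM and KRT7 were at 24.1 FPKM or more in PSN-1, while MIA PaCa-2 had at most 0.139 FPKM of EPCAM and 0 of KRT7. Leukocyte genes other than CD68 were at most 0.433 FPKM, and 4 of 5 endothelial markers were at 0 in MIA PaCa-2. In PSN-1 none of the 5 endothelial markers was at 0, with KDR at 6.5 FPKM (mimic) and 5.43 FPKM (scramble) and PECAM1 at 1.27 FPKM (mimic) and 1.58 FPKM (scramble). CD68, a macrophage marker also found in other cells, was at 38.7 FPKM (mimic) and 35.3 FPKM (scramble) in PSN-1, and at 34.6 FPKM (mimic) and 20.1 FPKM (scramble) in MIA PaCa-2. The 7 fibroblast markers summed to 81.3 FPKM (mimic) and 100.4 FPKM (scramble) in PSN-1, and to 67.0 FPKM (mimic) and 84.8 FPKM (scramble) in MIA PaCa-2. The genes behind these sums differed between the lines: COL1A2 was at 0.0120 FPKM (mimic) and 0 (scramble) in PSN-1, against 59.9 FPKM (mimic) and 76.8 FPKM (scramble) in MIA PaCa-2, while COL3A1, PDGFRB and LUM led in PSN-1. The part of these genes in the results below was not tested.

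Of the D-type cyclins, CCND3 was higher with the mimic in both lines, past 1.5-fold in each, and CCND1 was lower, past 1.5-fold in PSN-1 alone. These were the largest changes among the G1 genes in PSN-1; in MIA PaCa-2, CCND3 had the largest and both E cyclins had larger changes than CCND1. CCND3 was at 36.2 FPKM with the mimic and 18.5 FPKM with the scramble in PSN-1, and at 28.4 FPKM with the mimic and 17.3 FPKM with the scramble in MIA PaCa-2. Both mimic libraries lay above both scramble libraries, which were close to each other across the lines. CCND3 lies at chr6:41934933-42050357 (minus strand) and CCND1 at chr11:69641087-69654474 (plus strand), both in GRCh38. The log2 changes were 0.93 in PSN-1 and 0.68 in MIA PaCa-2, against a counting error of 0.11 and 0.12 (SE for a transcript of 1 kb). CCND3 was the only G1 gene higher past 1.5-fold in each line, where 3.17% of 12233 genes were so in PSN-1 and 5.43% of 11484 in MIA PaCa-2. Of the 10678 genes measured in both lines, 0.749% were higher past 1.5-fold in both. These are bulk samples, in which a change in the share of cells that express a gene and a change in RNA per cell cannot be told apart.

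CCND1, the cyclin D best known as a mitogen-induced gene, was at 18.6 FPKM with the mimic and 34.6 FPKM with the scramble in PSN-1. In MIA PaCa-2 it was at 11 FPKM with the mimic and 13.7 FPKM with the scramble. The PSN-1 scramble library stood above the other 3, and both MIA PaCa-2 libraries lay below both PSN-1 libraries. The log2 change was -0.86 in PSN-1, where 3.87% of genes were lower past 1.5-fold, and -0.29 in MIA PaCa-2, where 4.06% were and no G1 gene was. CCND2, which other tissues use in place of CCND1, was listed at 0 in all 4 libraries, so no change could be given for it and it entered no test. CCND1 overlaps ORAOV1 on the opposite strand, which was at 6.22 FPKM (mimic) and 8.46 FPKM (scramble) in PSN-1, and at 5.74 FPKM (mimic) and 3.14 FPKM (scramble) in MIA PaCa-2. Whether the counting used strand is not given in the sources used here, so it is unknown whether reads of such overlapping pairs were told apart. The overlap is one of whole gene spans, and overlap of exons was not tested.

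Put together, CCND3 was a larger share of the D cyclin transcripts in the mimic libraries. It made up 66.1% of the summed FPKM in the mimic library and 34.8% in the scramble library of PSN-1, and 72% in the mimic library and 55.8% in the scramble library of MIA PaCa-2. The ratio of CCND3 to CCND1 was 1.95 with the mimic and 0.533 with the scramble in PSN-1, and 2.57 with the mimic and 1.26 with the scramble in MIA PaCa-2. The sum itself differed less: 54.8 FPKM with the mimic and 53.1 FPKM with the scramble in PSN-1, and 39.4 FPKM with the mimic and 31.1 FPKM with the scramble in MIA PaCa-2. CCND3 was thus the more abundant D cyclin in 3 of the 4 libraries, and CCND1 in the PSN-1 scramble library.

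**Figure D1:**
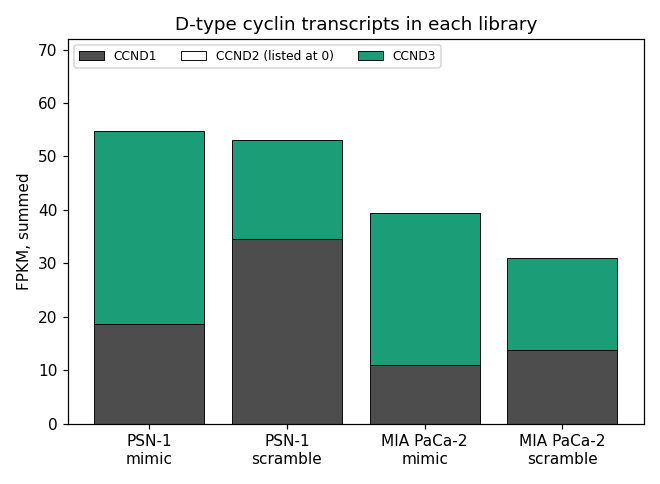
FPKM of the D-type cyclin genes (y axis) stacked for each of the 4 libraries (x axis), with CCND1 at the bottom and CCND3 on top. CCND3 fills 66.1% of the PSN-1 mimic bar and 34.8% of the PSN-1 scramble bar, and the 2 PSN-1 bars are nearly equal in height at 54.8 and 53.1 FPKM.

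The shared effect of the mimic was fitted over both lines with limma, blocked by cell line, which leaves 1 residual degree of freedom. Its SE and p-values also draw on the residual spread of the other genes, which weighed as 4.07 further degrees of freedom. They are thus not specific to a gene. At a Benjamini-Hochberg adjusted p under 0.05, limma called 0.0483% of 12423 genes higher and 0.00805% lower, and none of the 9 G1 genes that entered the fit. CCND3 had a mean log2 change of 0.81 (SE 0.14, adjusted p = 0.304 in limma), and over the alternatives its adjusted p ran from 0.145 to 1. CCND1 had a mean log2 change of -0.58 (SE 0.18, adjusted p = 0.529 in limma). Their unadjusted limma p-values were 0.00203 and 0.0250, and no other G1 gene was under 0.05. Since the residual of this fit is the disagreement between the lines, a difference between the lines in the response could not be tested.

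The kinase partners of the D cyclins showed small changes. CDK4 was at 88.0 FPKM with the mimic and 88.2 FPKM with the scramble in PSN-1, and at 56.6 FPKM with the mimic and 62.1 FPKM with the scramble in MIA PaCa-2. It was among the most abundant of the 10 genes, above 93.7% of measured genes in the PSN-1 scramble library. Its opposite-strand neighbours TSPAN31 and MARCH9 overlap it and were at 1.12 to 5.45 FPKM. CDK6, the alternative partner, was at 18.6 FPKM with the mimic and 20.4 FPKM with the scramble in PSN-1, and at 25.5 FPKM with the mimic and 22.6 FPKM with the scramble in MIA PaCa-2. Its log2 changes were -0.13 and 0.17, opposite in sign and each near the counting error of a 1 kb transcript (0.12 and 0.11). The annotated CDK6 coding transcripts have 11612 and 1465 bases, and a longer transcript has a smaller counting error. The changes may thus lie further above that error. Together CDK4 and CDK6 summed to 107 FPKM with the mimic and 109 FPKM with the scramble in PSN-1, and to 82.1 FPKM with the mimic and 84.7 FPKM with the scramble in MIA PaCa-2.

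The E-type cyclins had opposite signs in the 2 lines, higher with the mimic in PSN-1 and lower in MIA PaCa-2, with no change past 1.5-fold. CCNE1 was at 33.2 FPKM with the mimic and 27.5 FPKM with the scramble in PSN-1, and at 20.4 FPKM with the mimic and 25.6 FPKM with the scramble in MIA PaCa-2. CCNE2 was at 12.2 FPKM with the mimic and 9.92 FPKM with the scramble in PSN-1, and at 4.09 FPKM with the mimic and 5.92 FPKM with the scramble in MIA PaCa-2. Both E cyclins were thus highest in the PSN-1 mimic library and lowest in the MIA PaCa-2 mimic library, with the scramble libraries between. The log2 changes in PSN-1 and MIA PaCa-2 were 0.26 and -0.31 for CCNE1 and 0.27 and -0.44 for CCNE2. The CCNE2 gene overlaps INTS8 on the opposite strand, which was at 14.8 to 22.7 FPKM, and NDUFAF6, at 3.68 to 7.35 FPKM, with the same limit as for CCND1.

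CDK2, the partner of cyclin E, was lower with the mimic in both lines by less than 1.5-fold. It was at 29.3 FPKM with the mimic and 36.4 FPKM with the scramble in PSN-1, and at 13.2 FPKM with the mimic and 15.5 FPKM with the scramble in MIA PaCa-2. The log2 changes of -0.30 and -0.21 were above the counting errors of a 1 kb transcript (0.095 and 0.15), and limma gave an adjusted p of 0.660. The transcript ratio of both E cyclins to CDK2 was 1.55 with the mimic and 1.03 with the scramble in PSN-1, and 1.86 with the mimic and 2.04 with the scramble in MIA PaCa-2.

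Of the brakes of the pathway, CDKN1B differed little with the mimic, and RB1 was higher in both lines by less than 1.5-fold. CDKN1B was at 29.8 FPKM with the mimic and 33.0 FPKM with the scramble in PSN-1, and at 72.6 FPKM with the mimic and 77.3 FPKM with the scramble in MIA PaCa-2 (log2 changes -0.14 and -0.09). RB1 was at 19.9 FPKM with the mimic and 16.6 FPKM with the scramble in PSN-1, and at 20.5 FPKM with the mimic and 17.7 FPKM with the scramble in MIA PaCa-2. Both mimic libraries were above both scramble libraries for RB1, with log2 changes of 0.25 and 0.20 against counting errors of 0.13 (1 kb transcript) in each line. The adjusted p in limma was 0.699 for RB1 and 0.823 for CDKN1B.

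**Figure D2:**
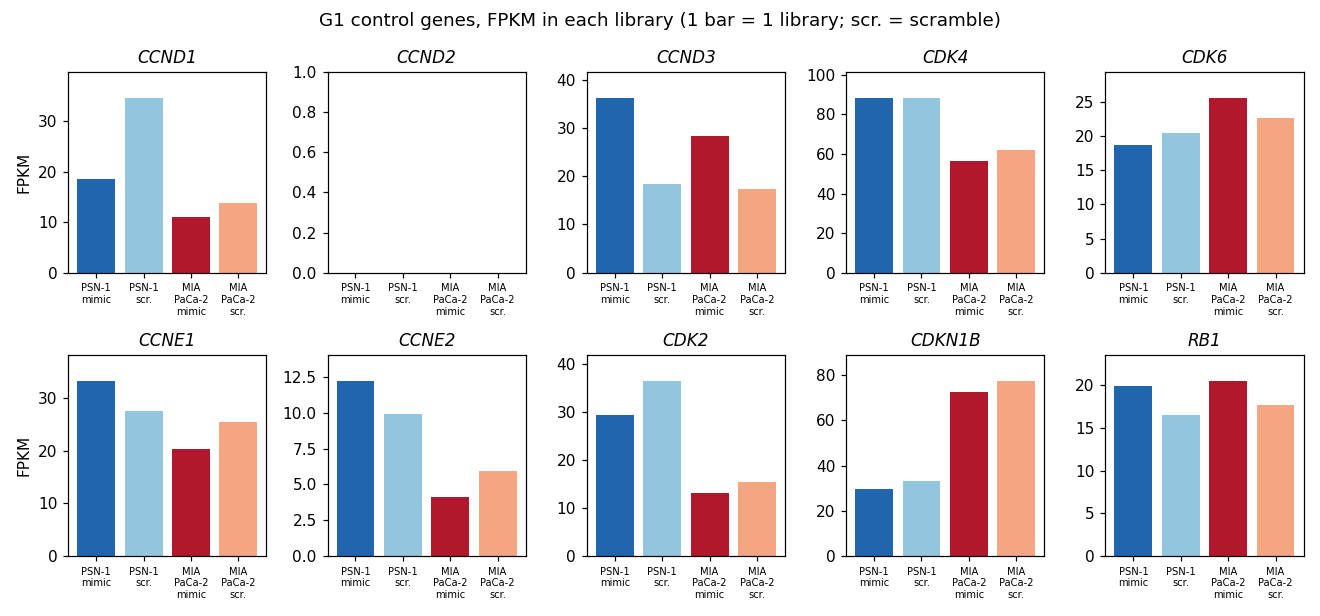
FPKM (y axis, from 0, with its own scale in each panel) of the 10 G1 genes in the 4 libraries, 1 bar per library. CCND3 is higher in both mimic bars, CCND2 is at 0 throughout, and CDKN1B is at 29.8 and 33.0 FPKM in PSN-1 against 72.6 and 77.3 FPKM in MIA PaCa-2.

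Over the 9 measured G1 genes, 5 were lower and 4 higher with the mimic in PSN-1 (median log2 change -0.0021, against -0.016 for all 12233 genes), and 6 were lower and 3 higher in MIA PaCa-2 (median -0.13, against 0.014 for all 11484 genes). In PSN-1 the count of lower genes includes CDK4, whose change was -0.0021 and was above 0 under median-ratio scaling and after any slope against the GC content of 3' UTRs was taken out.

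**Figure D3:**
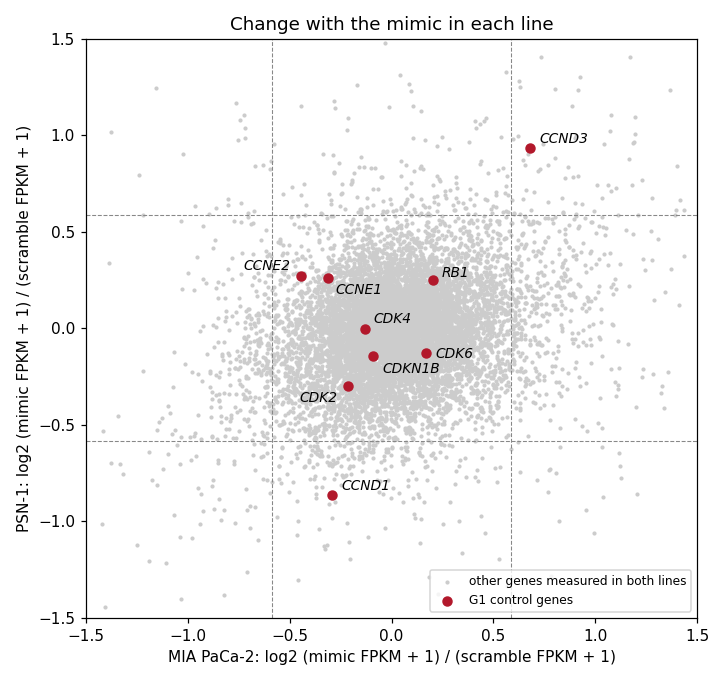
Log2 change with the mimic in MIA PaCa-2 (x axis) and in PSN-1 (y axis), with the 9 measured G1 genes in red, other genes in grey and dashed lines at 1.5-fold. CCND3 lies beyond the lines on both axes and CCND1 beyond the line on the PSN-1 axis only; 68 genes past 1.5 log2 units on an axis are not drawn.

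Between the lines, PSN-1 had more CDK2, CCND1, CCNE2 and CDK4 RNA and less CDKN1B RNA than MIA PaCa-2. Limma, with the oligonucleotide as a covariate, called these 5 of the 9 genes at an adjusted p under 0.05, but it also called 29.2% of all genes higher and 27.3% lower in PSN-1, and 5 of 9 is close to the share called over all genes in either direction. CDK2 had 29.3 and 36.4 FPKM in PSN-1, against 13.2 and 15.5 FPKM in MIA PaCa-2 (mean log2 difference 1.14, SE 0.13, adjusted p = 0.00178 in limma). CDKN1B had 29.8 and 33.0 FPKM in PSN-1, against 72.6 and 77.3 FPKM in MIA PaCa-2 (mean log2 difference -1.23, SE 0.11, adjusted p = 0.000928 in limma). For both genes the libraries of the lines did not overlap, which also held for CCND1, CCNE1, CCNE2, CDK4 and CDK6. The share of all genes without such overlap is not given here. CDK2 and CDKN1B lie on the same chromosome, at chr12:55966769-55972784 and chr12:12715058-12722371 (GRCh38, plus strand). The ratio of CDKN1B to CDK2 transcripts was 1.02 and 0.908 in the PSN-1 mimic and scramble libraries, against 5.50 and 5.0 in the MIA PaCa-2 mimic and scramble libraries.

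The other 3 called genes were CCND1 (mean log2 difference 0.99, SE 0.18, adjusted p = 0.00821 in limma), CCNE2 (1.02, SE 0.22, adjusted p = 0.0133 in limma) and CDK4 (0.56, SE 0.11, adjusted p = 0.00915 in limma). The CCND1 difference was 0.70 between the mimic libraries and 1.27 between the scramble libraries, and that of CCNE2 was 1.37 and 0.66. CCND3 (0.21, adjusted p = 0.241 in limma), CCNE1 (0.39, adjusted p = 0.119), CDK6 (-0.29, adjusted p = 0.147) and RB1 (-0.063, adjusted p = 0.701) did not pass. A p above the threshold with 1 residual degree of freedom does not show equal levels.

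The order of the levels also differed. In PSN-1, CDK4 stood first (mean 88.1 FPKM) with no overlap with the next gene, followed by CDK2, CDKN1B, CCNE1, CCND3, CCND1, CDK6 and RB1 (means 32.9 to 18.2 FPKM), in which each gene's 2 libraries overlapped those of its neighbour. In MIA PaCa-2, CDKN1B stood first (mean 75.0 FPKM) and CDK4 second (mean 59.3 FPKM), without overlap. CDK6, CCNE1, CCND3 and RB1 (means 24.1 to 19.1 FPKM) overlapped their neighbours in turn, as did CDK2 and CCND1 (means 14.3 and 12.4 FPKM). CCNE2 was the lowest detected gene in both lines, at a mean of 11.1 FPKM in PSN-1 and 5.01 FPKM in MIA PaCa-2.

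Among the other CDK inhibitors, CDKN2B and CDKN2C separated the lines by wide margins in opposite directions. CDKN2B, which encodes the CDK4 and CDK6 inhibitor p15, had 40.7 and 41.9 FPKM in PSN-1 and was listed at 0 in both MIA PaCa-2 libraries. CDKN2C, which encodes the related inhibitor p18, showed the reverse, with 3.02 FPKM (mimic) and 4.54 FPKM (scramble) in PSN-1, against 52.4 FPKM (mimic) and 91.3 FPKM (scramble) in MIA PaCa-2 (mean log2 difference -3.90, SE 0.15, adjusted p = 0.000112 in limma). CDKN2A, the gene of p16, was at 0.132 and 0.499 FPKM in PSN-1 and listed at 0 in MIA PaCa-2. CDKN1A, which encodes p21, was at 10.5 to 12.8 FPKM in all 4 libraries. Of the 5 inhibitor genes in the fit, 2 were called higher and 1 lower in PSN-1, against 29.2% and 27.3% of all genes, so the number called is near the background. CDKN2B was picked out after its values were seen.

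With the mimic, CDKN2C was lower in both lines, by 0.46 on the log2 scale in PSN-1 and by 0.79 in MIA PaCa-2. CDKN1C, which encodes p57, was at 9.08 FPKM with the mimic and 9.01 FPKM with the scramble in PSN-1, and at 7.06 FPKM with the mimic and 4.0 FPKM with the scramble in MIA PaCa-2. Of the measured inhibitors, none of 5 in PSN-1 and 1 higher and 1 lower of 4 in MIA PaCa-2 passed 1.5-fold. The background in MIA PaCa-2 was 5.43% of genes past this threshold upwards and 4.06% downwards. For PSN-1 the matching shares were 3.17% and 3.87%. The MIA PaCa-2 counts thus stood above the background, but on a list of 4 genes, and the excess was not tested. Limma called 0 of 5 for the mimic (lowest adjusted p = 0.441).

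**Figure D4:**
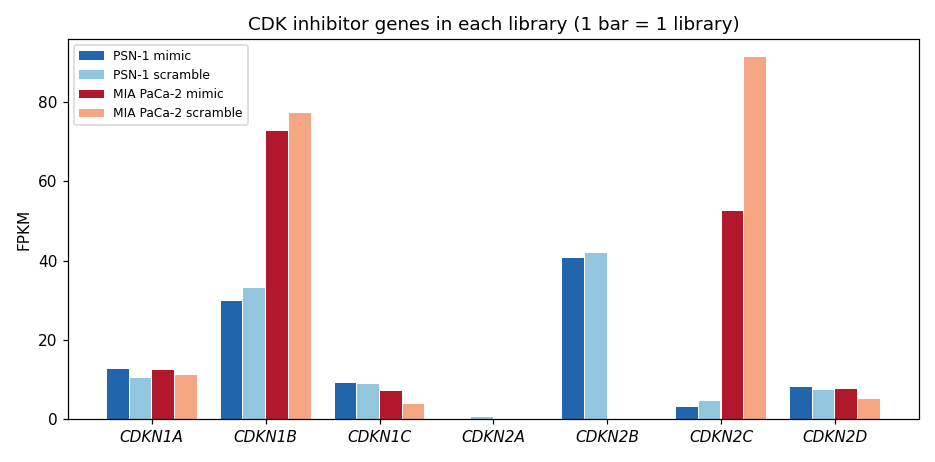
FPKM (y axis, from 0) of CDKN1B and the other CDK inhibitor genes in each library, 1 bar per library in the order PSN-1 mimic, PSN-1 scramble, MIA PaCa-2 mimic and MIA PaCa-2 scramble. CDKN2B bars are seen in PSN-1 alone (40.7 and 41.9 FPKM), and CDKN2C is at 52.4 and 91.3 FPKM in MIA PaCa-2 against 3.02 and 4.54 FPKM in PSN-1.

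The counts past 1.5-fold in the other gene lists are to be read against the shares of all genes, 3.17% higher and 3.87% lower in PSN-1 and 5.43% higher and 4.06% lower in MIA PaCa-2. For lists of this size, 1 gene past the threshold is near that background. Among the other cyclins, 1 of 17 measured genes was higher and 1 lower past 1.5-fold in PSN-1, and 0 were higher and 2 lower in MIA PaCa-2. CCNF, the substrate receptor of a ubiquitin ligase, was at 3.83 FPKM with the mimic and 6.07 FPKM with the scramble in PSN-1, and at 3.85 FPKM with the mimic and 9.24 FPKM with the scramble in MIA PaCa-2. CCNA2, the S-phase partner of CDK2, had log2 changes of -0.33 in PSN-1 and -0.88 in MIA PaCa-2. CCNL1, a cyclin linked to splicing, had log2 changes of 0.72 in PSN-1 and -0.09 in MIA PaCa-2, and CCNO of -0.66 and -0.24. None of the 17 was called by limma for the mimic (lowest adjusted p = 0.440).

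The other cyclin-dependent kinases had medians near 0 with the mimic (0.048 in PSN-1 and -0.011 in MIA PaCa-2). CDK1, the mitotic kinase, was at 25.6 FPKM with the mimic and 25.1 FPKM with the scramble in PSN-1, and at 18.2 FPKM with the mimic and 29.6 FPKM with the scramble in MIA PaCa-2. In PSN-1, CDK18 (-0.77) and CDK3 (-0.64) were the 2 of 18 past 1.5-fold, both lower, and in MIA PaCa-2 CDK1 (-0.67) was the only one of 15. CDK20 had a log2 change of 0.43 in MIA PaCa-2. Between the lines, limma called 4 of 17 higher and 5 lower in PSN-1, near the 29.2% and 27.3% of all genes. CDK18 had 4.95 and 9.15 FPKM in PSN-1, against 0.727 and 0.527 FPKM in MIA PaCa-2, and CDK16 had 39.2 and 37.8 FPKM, against 110 and 120 FPKM (CDK16 was picked out after its values were seen).

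Of the pocket proteins and the E2F and DP factors, none of 11 passed 1.5-fold in PSN-1, and 1 was higher and 1 lower of 10 in MIA PaCa-2. E2F1, an activator of S-phase genes, was lower with the mimic in both lines by less than 1.5-fold (-0.43 in PSN-1 and -0.39 in MIA PaCa-2). E2F5, a factor that works with the pocket proteins as a repressor, was at 8.79 FPKM with the mimic and 9.14 FPKM with the scramble in PSN-1, and at 6.56 FPKM with the mimic and 3.47 FPKM with the scramble in MIA PaCa-2. E2F8 was the gene lower past 1.5-fold in MIA PaCa-2 (log2 change -0.95, against 0.37 in PSN-1). Its level was 2.94 FPKM or less in all libraries. E2F7, picked out after its values were seen, separated the lines, with 38.0 and 37.4 FPKM in PSN-1, against 1.07 and 0.866 FPKM in MIA PaCa-2 (mean log2 difference 4.30, SE 0.15, adjusted p = 0.000101 in limma).

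Among 17 regulators of CDK activity and of cyclin and p27 turnover, 0 were higher and 1 lower past 1.5-fold in PSN-1, and 1 was higher and 1 lower in MIA PaCa-2, near the shares of all genes. WEE1, the kinase that inhibits CDK1 and CDK2, was at 25.6 FPKM with the mimic and 23.7 FPKM with the scramble in PSN-1, and at 82.5 FPKM with the mimic and 42.6 FPKM with the scramble in MIA PaCa-2. CDC25B, a phosphatase that reverses WEE1, was at 162 FPKM with the mimic and 253 FPKM with the scramble in PSN-1, and at 70.9 FPKM with the mimic and 71.7 FPKM with the scramble in MIA PaCa-2. CKS1B, a cofactor in the degradation of p27, had log2 changes of -0.56 in PSN-1 and -0.37 in MIA PaCa-2. CUL3, the scaffold of ubiquitin ligases whose substrates include cyclin E, had log2 changes of 0.067 and -0.67. Limma called 0 of 17 for the mimic (lowest adjusted p = 0.397).

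The listed replication genes and mitotic markers were mostly lower with the mimic. Over all genes, 47.6% were above 0 in PSN-1 and 52.2% in MIA PaCa-2. The lists were chosen with earlier results of these data known, so their counts are no independent test against such shares. Of 18 E2F-regulated replication genes, 17 were lower in PSN-1 (median log2 change -0.21) and 18 in MIA PaCa-2 (median -0.49), and 1 and 7 of these were past 1.5-fold, against backgrounds of 3.87% and 4.06%. RRM1, a subunit of ribonucleotide reductase, was lower past 1.5-fold in both lines (0.609% of genes were), at 22.7 FPKM with the mimic and 35.0 FPKM with the scramble in PSN-1, and at 18.2 FPKM with the mimic and 38.8 FPKM with the scramble in MIA PaCa-2. Among the pathway lists, RRM1 and E2F3 had a 7-base seed match in the longest annotated 3' UTR. E2F3, a transcription factor gene of the E2F family, was at 15.1 FPKM with the mimic and 14.7 FPKM with the scramble in PSN-1, and at 19.7 FPKM with the mimic and 22.9 FPKM with the scramble in MIA PaCa-2 (log2 changes 0.035 and -0.21). The part of these matches in the changes was not tested. Of 12 mitotic markers, 11 were lower in PSN-1 (median -0.24) and 12 in MIA PaCa-2 (median -0.55), and 0 and 5 of these were past 1.5-fold. The log2 changes in PSN-1 and MIA PaCa-2 were -0.40 and -1.09 for PLK1, -0.47 and -0.72 for BUB1B and 0.066 and -0.78 for KIF11. Limma called none of these 30 genes for the mimic (lowest adjusted p = 0.356 and 0.459 for the lists). These levels differed with the mimic beside those of CCND3 and CCND1, and their part in the G1 results was not tested.

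**Figure D5:**
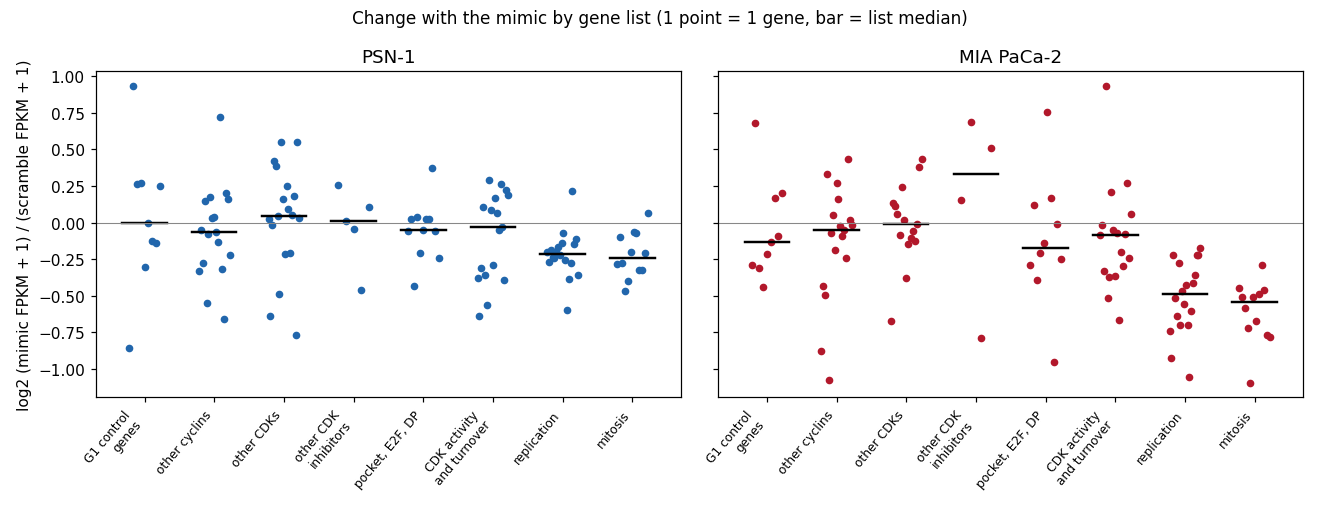
Log2 change with the mimic (y axis) of each measured gene in PSN-1 (left) and MIA PaCa-2 (right), by gene list (x axis), with black bars at list medians. The replication and mitosis lists have medians of -0.21 and -0.24 in PSN-1 and of -0.49 and -0.55 in MIA PaCa-2, and the G1 genes have medians near 0 and at -0.13 with CCND3 on top in PSN-1.

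The genes whose centred log2 levels lay nearest to CCND3 over the 4 libraries, of 9315 with a mean of at least 5 FPKM, were LSM3 (distance 0.150 log2 units), the immediate-early transcription factor gene EGR1 (0.163) and G3BP2 (0.246). LSM3, a protein of the U6 particle, was at 41.4 FPKM with the mimic and 20.3 FPKM with the scramble in PSN-1, and at 32.6 FPKM with the mimic and 22.2 FPKM with the scramble in MIA PaCa-2. Nearest to CDKN1B were TMEM201 (0.0321), POP7 (0.0352) and the receptor kinase gene EPHB4 (0.0499). EPHB4 had 33.2 and 37.1 FPKM in PSN-1, against 78.1 and 83.8 FPKM in MIA PaCa-2. With 4 libraries and a table this size, genes can lie close by without any link, and how many do so is not given here.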

How the data were processed

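The deposited tables give FPKM by gene symbol, 1 table per library, per the file headers. TopHat2 2.1.1, Cuffdiff 2.2.1 and the build hg19 are listed, with no role, per the submitters' processing notes. The gene models, use of strand and scaling of libraries were not given in the sources used here. Per the labels' protocols, libraries were made with a stranded mRNA kit.

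Genes averaging 1 FPKM or more across the libraries compared were used, on log2(FPKM + 1). Within a line, with 1 library per group, no test was made and changes past 1.5-fold were counted. Over all 4 libraries, the two-sided moderated test of limma 3.58.1 (R 4.3.3; mean-variance trend on; Benjamini-Hochberg over 12423 genes) gave the mimic effect with the cell line as a block and the line effect with the oligonucleotide as a covariate. Samples pair through the cell line named in the labels; there are no replicate numbers. The limma script was tested on simulated data.

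The worth of 1 fragment was the modal product of FPKM and length among genes with 1 coding transcript of at least 1000 bases under 0.12 FPKM (72 to 85 genes in the modal bin per library, assuming fragments of 200 bases), so depth is an estimate and its errors cover counting only. Python 3.11.15 with pandas 2.3.3, numpy 2.4.6 and matplotlib 3.10.9 did the rest. All 10 symbols matched the GENCODE annotation.

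Named genes were the 10 G1 genes; of each list the genes past 1.5-fold one way in both lines or otherwise the 2 largest changes in each line; and the 3 nearest genes to the G1 genes with the largest mean change and line difference. The members and lists were chosen with earlier results of these data known.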

Additional observations from a re-analysis of the deposited data

Results flagged for a closer look

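The mimic and scramble libraries differed in opposite directions in the 2 lines for CCNE1 (log2 change 0.26 in PSN-1 and -0.31 in MIA PaCa-2), CCNE2 (0.27 and -0.44), CDK6 (-0.13 and 0.17) and CCNL1 (0.72 and -0.09). In each case both changes were larger than the counting error of a 1 kb transcript, but some only by little. These were CDK6 in PSN-1 (change -0.13, error 0.12) and CCNL1 in MIA PaCa-2 (change -0.09, error 0.073). The difference between the lines was not tested, because each line has 1 pair of libraries.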

How the results depend on the processing

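Pseudocount, filter, scaling, trend, short non-coding genes and the covariates were varied, and, chosen after seeing the data, any slope against the GC content of 3' UTRs was taken out within each line. Over these, 126 values of G1 genes within a line kept their side of the 1.5-fold threshold. The filters and the removal of short non-coding genes cannot alter a gene's own change, so agreement under them was fixed in advance. Only the pseudocount, the scaling and the GC slope could move these values. CCND3 ran from 0.931 to 0.998 in PSN-1 and from 0.636 to 0.707 in MIA PaCa-2, and CCND1 in PSN-1 from -0.893 to -0.843. The line differences called by limma stayed called for the 5 genes, with CCND1 closest to the threshold (adjusted p up to 0.0482 in limma), and no G1 gene was called for the mimic under any of them. Counts over all genes moved by more than 1.5 times as follows. With a pseudocount of 0.1, PSN-1 had 593 genes higher and 737 lower, against 388 and 473. With a filter of 5 FPKM, which tests fewer genes, PSN-1 had 226 higher and 311 lower, and MIA PaCa-2 had 292 lower, against 466. For the mimic effect limma called 6 higher and 1 lower; without short non-coding genes 1 was higher, and without the trend 0 were lower (473 at an unadjusted p under 0.05). With no filter limma called 0 higher and 0 lower (559 and 557 unadjusted). Without the replicate block for the cell line it called 0 and 0 (23 and 21 unadjusted). The cause was not tested. With 1 library per group, no library could be left out within a line, and CCNE2 at 4.09 FPKM had the widest counting error of the G1 genes (0.25 for a 1 kb transcript in MIA PaCa-2).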

Other observations

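The gene MTAP, which lies beside CDKN2A and CDKN2B on the same chromosome arm, was chosen after the inhibitor values were seen. It was at 0.146 and 0.10 FPKM in PSN-1 and listed at 0 in both MIA PaCa-2 libraries. In PSN-1, CDKN2B at 40.7 and 41.9 FPKM thus stood beside MTAP and CDKN2A at under 0.5 FPKM, while in MIA PaCa-2 none of these 3 genes was above 0. The antisense gene CDKN2B-AS1 was at 0.515 and 0.475 FPKM in PSN-1, against 0.0664 and 0.0649 FPKM in MIA PaCa-2. RNA levels do not show whether the locus is present in either line.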
